A study of Mus musculus with 7 samples.

Results

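YAP (*Yap1*), its paralogue TAZ (*Wwtr1*), the 4 TEAD factors (*Tead1*, *Tead2*, *Tead3* and *Tead4*) and 4 of their target genes (*Cyr61*, *Ctgf*, *Amotl2* and *Ankrd1*) were followed in H3K27-Ac ChIP-seq of 3 tumour cell clones. These 10 genes were taken by name from the 21911 protein-coding genes of GENCODE M21 on GRCm38, where *Cyr61* and *Ctgf* are called *Ccn1* and *Ccn2*. H3K27-Ac is a histone mark of active promoters and enhancers, and in ChIP-seq the DNA bound by such histones is pulled down with an antibody and sequenced. Each clone came from a separate skin tumour of a FVB/129P2 backcross mouse that lacked *Cdkn2ab*, the locus of p15Ink4b, p16Ink4a and p19Arf, and was picked for growth in soft agar, so that each list describes 1 selected cell clone in culture and not a whole tumour. All clones carried this deletion and none was treated. The 4 H3K27-Ac libraries are 1 each of clones 1 and 2 and 2 of clone 3, which were pooled by the authors. The controls are 3 libraries made with unspecific IgG, from clones 1 and 3. No control of clone 2 was analysed here, and which control lies behind the fold enrichments and reads of clone 2 is not given in the sources used here. With 1 condition no test between groups could be made. The 2 libraries of clone 3 cannot be told apart in its pooled list, so no spread within a clone could be measured. The only measure of error is therefore the spread between the 3 clones, beside the counting error of single values.

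The lists hold 29182, 49587 and 29277 peaks of clones 1, 2 and 3, from an estimated 13.3, 13.7 and 35.8 M ChIP reads. The weakest listed peaks rest on 13, 12 and 25 reads at the summit, so that a weaker site is missing from a list without being shown to lack the mark. Markers were used to check what kind of cell the clones are. Of 9 keratinocyte markers, *Cdh3* and *Sox9* had a peak within 1 kb of a start, called a promoter peak, in all 3 clones, *Krt14* had one in clone 1 and *Krt15* in clone 2, while *Krt5*, *Trp63*, *Cdh1*, *Epcam* and *Dsg3* had none in any clone. Of 8 mesenchymal markers, 7, 7 and 4 had a promoter peak in clones 1, 2 and 3, and *Pdgfrb*, *Twist1*, *Prrx1* and *Vim* had one in each. None of 3 endothelial and none of 3 skeletal muscle markers had one. Among the immune markers only *Cd68* did, in clones 1 and 2, and among the melanocyte markers only *Pmel*, in all 3 clones. *Krt5* and *Trp63*, which define basal keratinocytes, thus had no listed promoter peak in these skin tumour clones, while *Cdh3* and *Sox9* had one in each. This holds for promoters only. By bases under peaks in and within 100 kb of the gene, *Trp63* stood at the percentiles 66, 60.5 and 98.2 of all protein-coding genes. *Krt5* stood at 9.75, 8.12 and 9.26. The part of these marker results in the values below was not tested.

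In the Hippo pathway a kinase cascade phosphorylates YAP and TAZ and keeps them out of the nucleus. When the cascade is off, YAP and TAZ enter the nucleus and bind TEAD factors, which recognise the DNA sequence GGAATG, often at enhancers that also hold AP-1 sites. Their targets include secreted matrix proteins and feedback inhibitors of the pathway. In skin, YAP is known for its role in the basal cells of the epidermis and hair follicle.

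The bases just before the start of transcription are shown first, because the motif of TEAD is frequent there. Sequences are from the GRCm38 reference, which is of another mouse strain than the clones, and are written 5′ to 3′ on the strand of the gene. Capitals mark GGAATG on either strand (CATTCC on the strand shown). Bases that lie in an exon of a coding transcript were left out. *Cyr61*, *Amotl2* and *Ankrd1* are shown as target genes of TEAD, and *Yap1* and *Wwtr1* were added after their matches were seen.
Cyr61, before the start, chr3:145649982-145650231, minus strand: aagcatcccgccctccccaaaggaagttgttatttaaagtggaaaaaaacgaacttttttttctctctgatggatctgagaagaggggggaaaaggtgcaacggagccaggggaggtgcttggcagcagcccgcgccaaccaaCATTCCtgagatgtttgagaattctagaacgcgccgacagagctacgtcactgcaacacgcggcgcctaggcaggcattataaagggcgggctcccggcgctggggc
Amotl2, before the start, chr9:102717443-102717667, plus strand: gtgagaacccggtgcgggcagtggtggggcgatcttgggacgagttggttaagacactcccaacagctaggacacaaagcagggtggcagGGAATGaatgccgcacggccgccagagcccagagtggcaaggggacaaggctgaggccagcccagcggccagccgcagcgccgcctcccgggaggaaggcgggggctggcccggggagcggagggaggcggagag
Ankrd1, before the start, chr19:36120100-36120349, minus strand: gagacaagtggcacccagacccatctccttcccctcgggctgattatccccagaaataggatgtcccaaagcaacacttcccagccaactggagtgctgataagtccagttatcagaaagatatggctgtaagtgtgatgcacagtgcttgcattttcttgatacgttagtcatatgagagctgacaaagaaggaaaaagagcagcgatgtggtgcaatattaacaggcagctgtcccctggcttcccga
Yap1, before the start, chr9:8004597-8004838, minus strand: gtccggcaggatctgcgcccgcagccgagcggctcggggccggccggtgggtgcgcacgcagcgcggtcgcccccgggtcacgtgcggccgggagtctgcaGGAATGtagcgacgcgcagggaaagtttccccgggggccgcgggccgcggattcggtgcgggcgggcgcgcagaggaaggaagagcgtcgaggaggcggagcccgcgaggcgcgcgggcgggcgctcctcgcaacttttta
Wwtr1, before the start, chr3:57575911-57576078, minus strand: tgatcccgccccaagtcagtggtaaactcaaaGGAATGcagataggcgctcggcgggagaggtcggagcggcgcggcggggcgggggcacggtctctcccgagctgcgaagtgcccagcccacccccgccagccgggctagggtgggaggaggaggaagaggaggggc

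Matches are placed by their first base. *Cyr61* has 1 match 107 bases before its start, and *Amotl2* has matches 235 and 135 bases before it, the first of which lies in an exon of another *Amotl2* transcript and is not shown. No match was found in the 250 bases before *Ankrd1*. Among the effectors, *Yap1* and *Wwtr1* have 1 match each, 149 and 218 bases before the start, and *Tead3* has 2, 123 and 114 bases before it, in a window that is not shown because exons of its other transcripts take up most of it. *Tead2* and *Tead4* have none in this window. In all, 5 of these 8 genes hold GGAATG within 250 bases before the principal start, against 2456 of the 21911 protein-coding genes, or 11.2%. At least 2 matches occur in *Tead3* and *Amotl2* and in 0.826% of all genes. The longer forms GGAATGT or GGAATGC were present at 4 of the 8 genes and 5.18% of all genes. The count rests on the window, since the last 100 bases hold a match in 0 of the 8 genes and 3.99% of all genes, and 500 bases in 5 of the 8 genes and 22.8% of all genes. The AP-1 motif TGANTCA, which reads the same on both strands, was found before none of the 8 starts and before 5.85% of all starts. These windows are also richer in G and C than most, with a median of 62.8% over the 8 genes and 54.8% over all genes. The target genes are known as such partly from TEAD sites at their promoters, so their matches are not independent of their choice, and the count over all genes was made after the first sequences had been read.

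**Figure D1:**
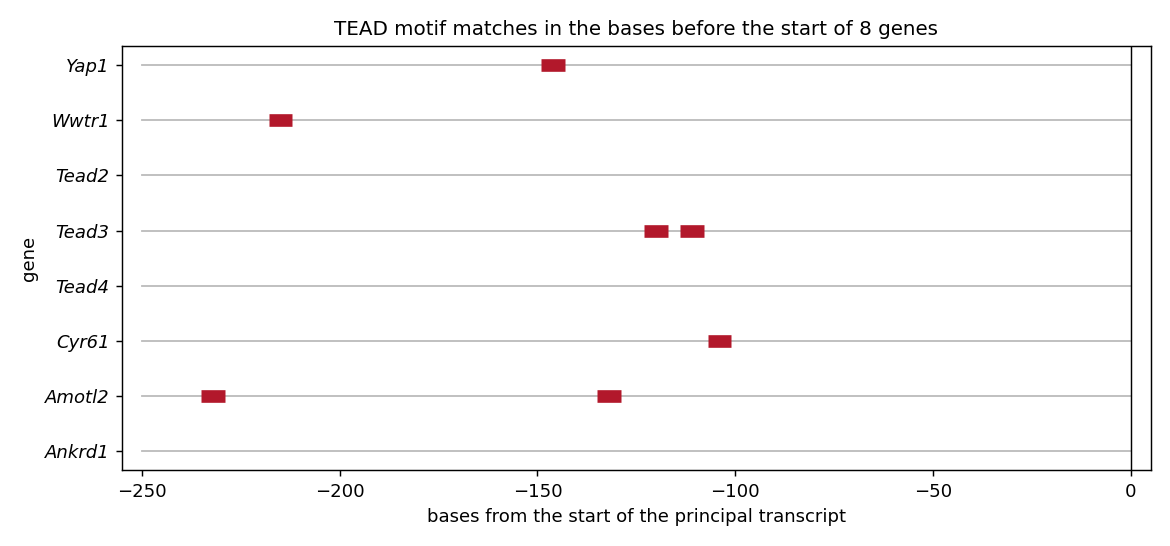
Positions of GGAATG on either strand in the 250 bases before the principal start of 8 genes (x axis, bases from the start; 1 row per gene). *Tead3* and *Amotl2* have 2 matches, *Yap1*, *Wwtr1* and *Cyr61* have 1, and *Tead2*, *Tead4* and *Ankrd1* have none.

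At every one of the 10 genes each clone had a promoter peak, that is, an H3K27-Ac peak that reached within 1 kb of an annotated start. Such a peak was present at 49.8%, 56.9% and 48.1% of all protein-coding genes in clones 1, 2 and 3, and at 46.5% in all 3 clones. The 10 genes have between 1 (*Cyr61*) and 16 (*Tead2*) annotated starts, and a gene with more starts has more chances of such a peak. With the start of the principal transcript alone the count was also 10 of 10 in all 3 clones. A peak that covers a start base itself was present at 8 of the 10 genes in all clones, the others being *Tead2* and *Cyr61*, which lacked one in clone 3. The share of all protein-coding genes was not worked out for these stricter rules, so the shares above do not apply to them. The strength of each promoter is given as the ChIP reads at the summit of its strongest promoter peak by fold enrichment, worked out from the deposited fold enrichment and p-value, and relative to the median of the 10194 genes with such a peak in all clones, which was 102, 243 and 84 reads in clones 1, 2 and 3.

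**Figure D2:**
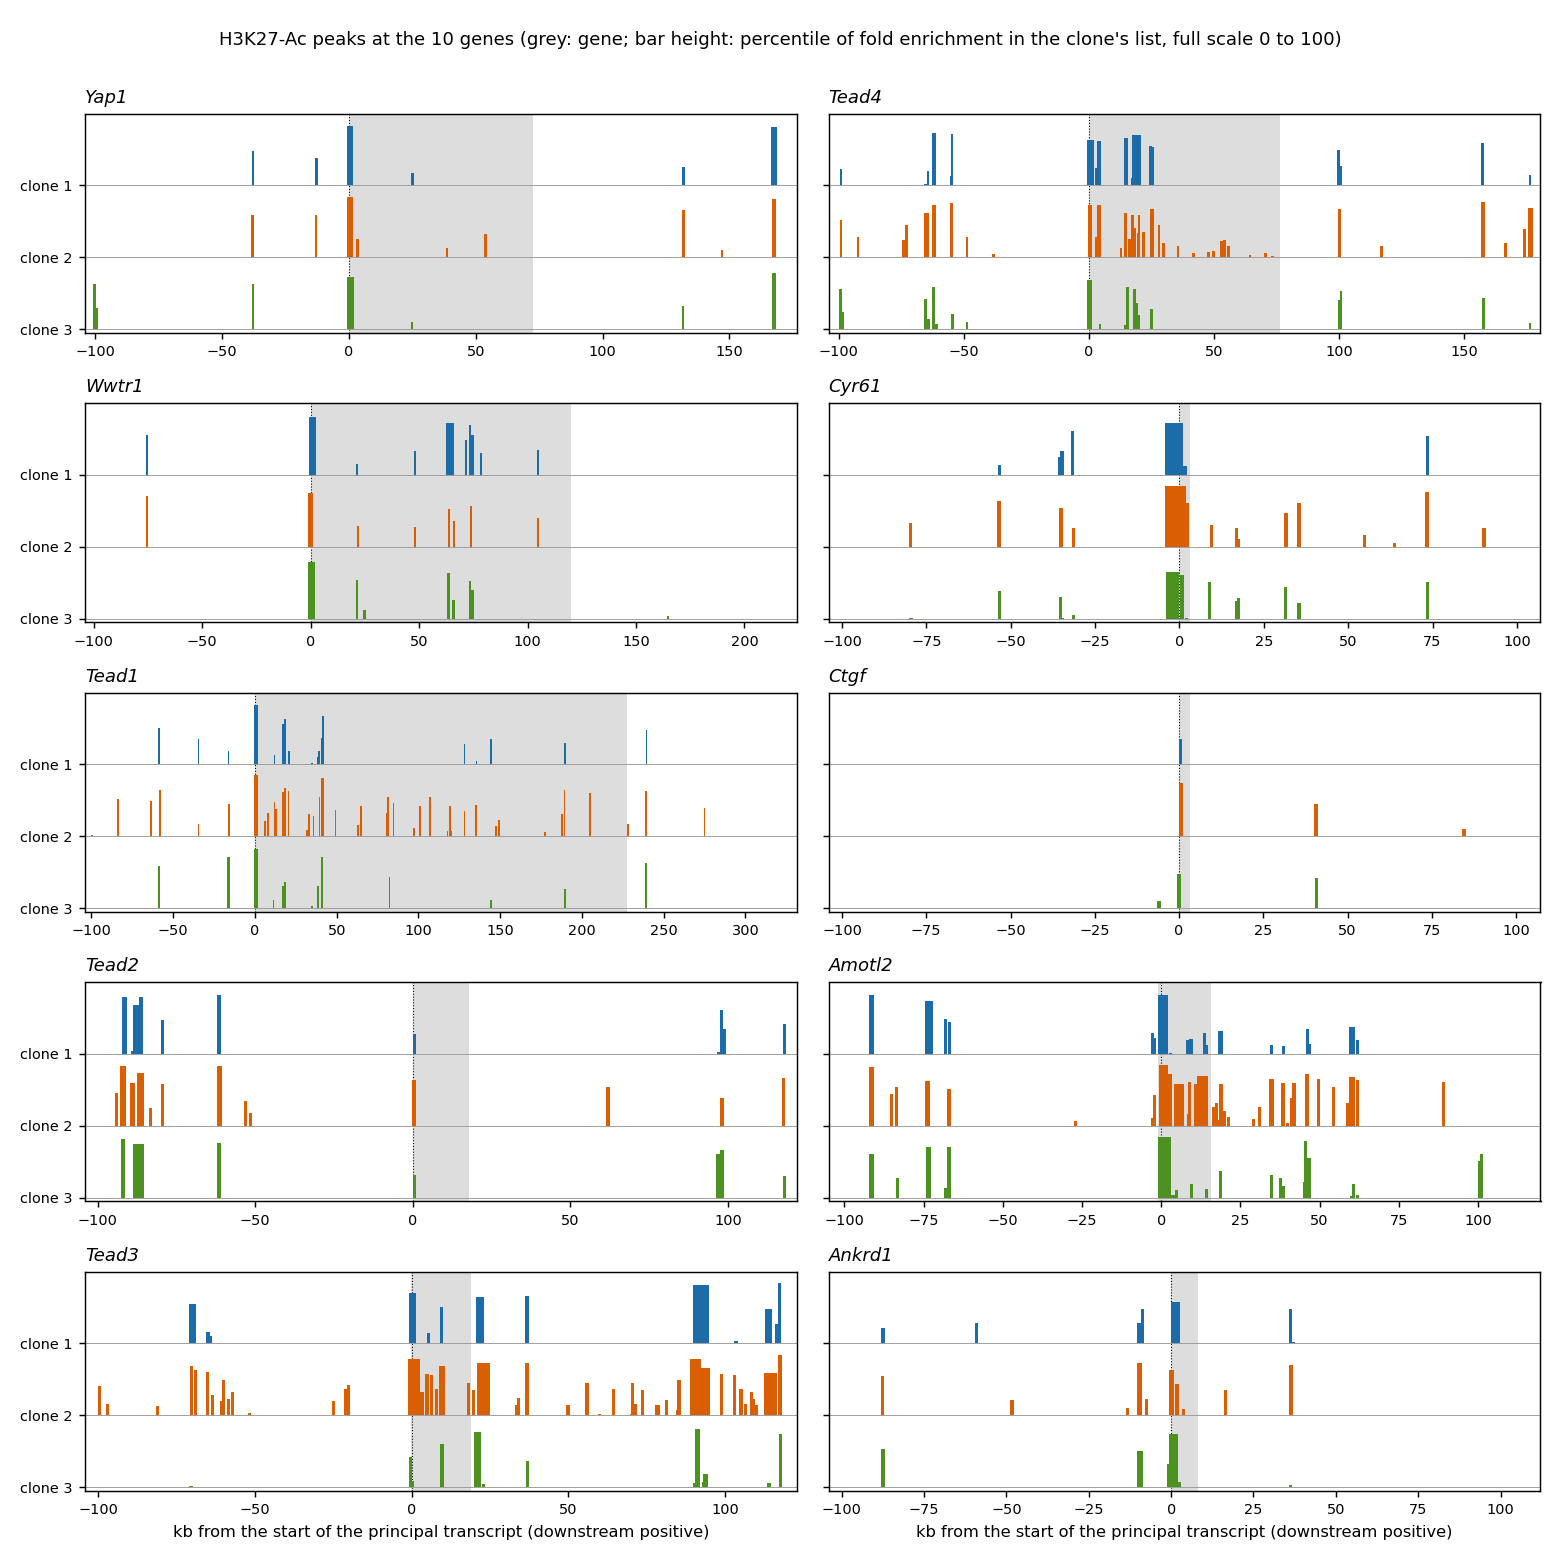
H3K27-Ac peaks in and within 100 kb of each gene, by distance in kb from the start of the principal transcript (x axis, downstream positive; the gene is shaded). Rows are the 3 clones, bars are peaks, and bar height is the percentile of the peak's fold enrichment in the list of its clone; peaks narrower than 1 kb are drawn 1 kb wide. *Ctgf* stands alone with 1 to 3 peaks, and clone 2 has the most peaks at *Tead1*, *Tead3*, *Tead4* and *Amotl2*.

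*Yap1*, the transcriptional coactivator of the pathway, lies on the minus strand of Chr9 from 7931999 to 8004596. Its promoter peak held 167, 320 and 124 reads in clones 1, 2 and 3, with summits 306, 279 and 309 bases into the gene. These are 1.64, 1.32 and 1.48 times the median promoter of the clone, and the counting intervals (95%, exact Poisson) of 1.40 to 1.91, 1.18 to 1.47 and 1.23 to 1.76 overlap. The promoter was thus above the median in each clone. Outside the promoter windows no region within the gene was shared by all clones, as the single body peak of clones 1 and 3 lay at another place than that of clone 2. Of its 7 distal regions within 100 kb, 3 were shared by all clones, and each lies at the start of another gene, namely *Birc2* and *Birc3*, which encode inhibitors of apoptosis, and *Cfap300*. The region at *Birc2* was the strongest of these with 149, 321 and 100 reads. In and around the 72.6 kb of *Yap1* 6, 9 and 7 peaks were listed.

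*Wwtr1*, which encodes TAZ, lies on the minus strand of Chr3 from 57455649 to 57575910. At its promoter 162, 367 and 120 reads were found, or 1.59, 1.51 and 1.43 times the median promoter. The range over the clones was 0.15 on the log2 scale, with *Tead4* the narrowest of the 10 genes. Unlike *Yap1*, the gene carried 3 body regions shared by all clones. They lie about 21, 64 and 74 kb downstream of the start and the one at 64 kb had the highest mean percentile among peaks, with 98, 63 and 62 reads. Only 1 distal peak was listed in each clone, and not at the same place in all of them.

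*Tead1* encodes the TEAD factor with the largest gene of the group, 227 kb on the plus strand of Chr7 from 112679318 to 112906807. Its promoter peak held 185, 421 and 169 reads, 1.81, 1.73 and 2.01 times the median promoter. Among the effectors this was the highest value in every clone. Within the gene 12, 29 and 9 body peaks were listed, of which 5 regions were shared by all clones. The strongest of them lies 41 kb downstream of the start with 71, 255 and 83 reads. Clone 2 had the most reads at the median promoter as well, with 243 beside 102 and 84 in clones 1 and 3.

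*Tead2*, on the plus strand of Chr7 from 45215753 to 45233644, was at the other end. The promoter reads were 27, 109 and 43, or 0.265, 0.449 and 0.512 times the median promoter. In each clone this lies below the lower quartile of all genes, which was 0.637, 0.704 and 0.714. The counting intervals, 0.174 to 0.385 in clone 1 and 0.368 to 0.541 in clone 2, overlap only narrowly. No body peak was listed in any clone. Of its distal regions, 5 were shared, among them one at the starts of *Aldh16a1* and *Pih1d1* with 154, 330 and 93 reads.

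*Tead3*, on the minus strand of Chr17 from 28331671 to 28350817, had a promoter peak of 89, 228 and 41 reads. Relative to the median promoter these are 0.873, 0.938 and 0.488, and the interval of clone 3, 0.350 to 0.662, lies below those of clones 1 and 2, which begin at 0.701 and 0.820. In clone 3 the strongest promoter peak had its summit at position −697 from the principal start and did not cover a start. Around *Tead3* the clones differed most in the number of peaks, with 10, 44 and 10 distal peaks.

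*Tead4*, on the minus strand of Chr6 from 128224288 to 128300823, had a promoter peak of 100, 222 and 74 reads, or 0.980, 0.914 and 0.881 times the median. The values lie close to the median in every clone and their intervals overlap. A second promoter region, 25 kb downstream at another annotated start, was also shared by all clones with 50, 90 and 42 reads. Body peaks numbered 5, 22 and 6. Of these, 3 regions were shared, and together with both promoter regions they line the first 25 kb of the gene.

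*Cyr61* encodes a secreted matricellular protein and spans 3.01 kb on the minus strand of Chr3 from 145646976 to 145649981. It is the only one of the 10 genes with a single annotated start. A broad peak covered the start in clones 1 and 2, 5.36 and 6.27 kb wide, and in clone 3 peaks of 3.86 and 1.46 kb lay on either side of it. Their highest point was not at the start but upstream of it, at −3144, −2477 and −3739 bases, with 98, 356 and 101 reads. In clone 3 the peak inside the gene held 78 reads at its own summit. The reads at the upstream summit were 0.961, 1.47 and 1.20 times the median promoter. Clone 2 was the highest, and its interval of 1.32 to 1.63 lies above that of clone 1, 0.780 to 1.17. Because this summit lies beyond 1 kb, *Cyr61* was the gene lost when the summit itself had to lie within 1 kb of a start, which left 9 of 10 genes. Another annotated gene, *Gm17501*, also starts within 1 kb of these peaks, and reads of the promoters cannot be told apart there.

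*Ctgf* encodes the related protein CCN2 and spans 3.24 kb on the plus strand of Chr10 from 24595442 to 24598683. Its promoter peak held 24, 151 and 45 reads, with fold enrichments of 6.66, 37.7 and 5.81. Relative to the median promoter these are 0.235, 0.621 and 0.536, and the interval of clone 1, 0.151 to 0.350, lies below those of clones 2 and 3, 0.526 to 0.729 and 0.391 to 0.717. Clone 1 was therefore the lowest. The peak was also narrow, 0.449, 1.26 and 1.21 kb, and the antisense transcript *Gm15270* starts within 1 kb of it. No body peak was listed in any clone. Distal peaks numbered 0, 2 and 2, and none was shared by all clones, although clones 2 and 3 both had one about 40 kb downstream, with 33 and 44 reads. *Ctgf* thus had the fewest H3K27-Ac peaks of the 10 genes.

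*Amotl2* encodes an angiomotin of cell junctions that binds YAP and is itself a target, and lies on the plus strand of Chr9 from 102716672 to 102733418. Its promoter peak held 198, 450 and 206 reads, or 1.94, 1.85 and 2.45 times the median promoter. In each clone this was the highest value of the 10 genes. By fold enrichment its promoter peak stood at the percentiles 91.0, 98.1 and 98.8 of all genes, below *Yap1* with 93.5 in clone 1 and *Tead1* with 98.9 in clone 2. Around the gene 13, 28 and 17 distal peaks were listed, and 9 distal regions were shared by all clones, more than for any other of the 10 genes. All but 1 of these, at *Anapc13* and *Cep63*, lay away from the starts of other genes.

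*Ankrd1*, an ankyrin repeat protein of striated muscle and a target of YAP, lies on the minus strand of Chr19 from 36111961 to 36120099. The peak at its promoter had 54, 100 and 91 reads, or 0.529, 0.412 and 1.08 times the median promoter. Clone 3 was the highest, and its interval of 0.872 to 1.33 lies above those of the other clones, which end at 0.691 and 0.501. A distal region about 9 kb before the start was shared by all clones with 33, 235 and 114 reads.

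**Figure D3:**
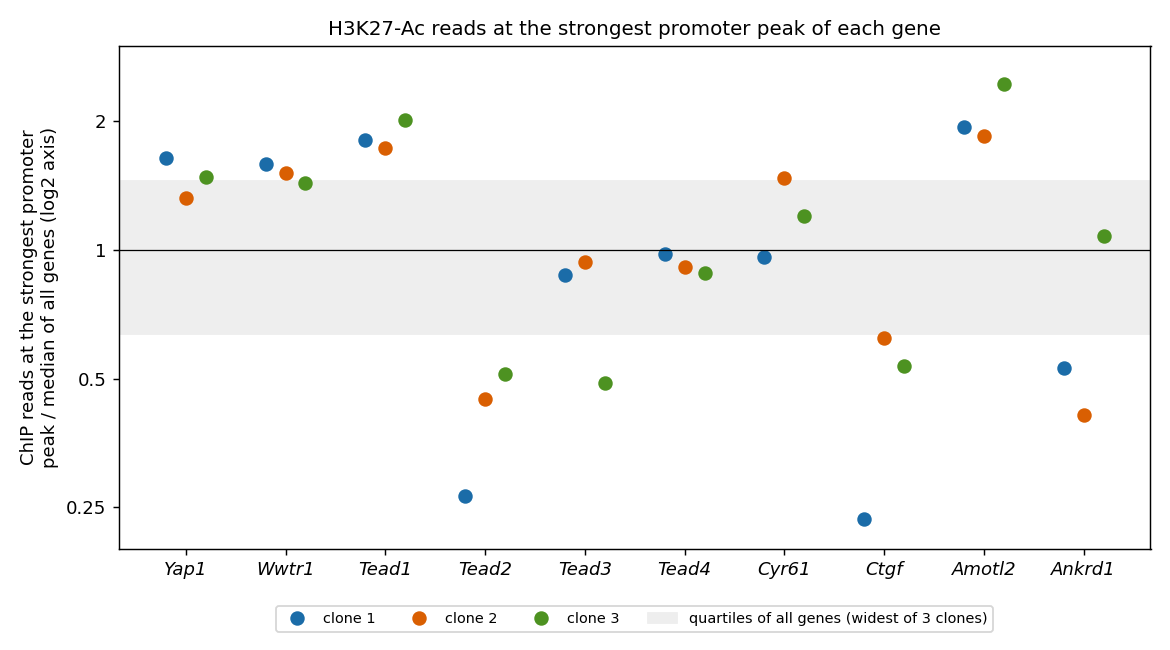
ChIP reads at the strongest promoter peak of each gene (x axis) divided by the median over all genes with a promoter peak in all clones (y axis, log2 scale), 1 point per clone; the shaded band spans the quartiles of all genes. *Amotl2*, *Tead1*, *Wwtr1* and *Yap1* lie above 1 in all clones and *Tead2* and *Ctgf* below it, with 1.94, 1.85 and 2.45 for *Amotl2* and 0.235, 0.621 and 0.536 for *Ctgf*.

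Ordered by their relative promoter reads, the genes can be divided into a high and a low set with others between. *Amotl2*, *Tead1*, *Wwtr1* and *Yap1* had values from 1.32 to 2.45 and *Tead2* and *Ctgf* from 0.235 to 0.621. The sets were named from these same values, so that the gap between them follows from the choice. *Amotl2* was above *Tead1* in each clone, although their ranges over the clones and their counting intervals within each clone overlapped. *Yap1* was above *Wwtr1* in clones 1 and 3 and below it in clone 2. *Cyr61*, from 0.961 to 1.47, overlapped with *Yap1* and *Wwtr1* above it and with *Tead4* below it. *Tead4* in turn overlapped with *Tead3*, and *Tead3* with *Ankrd1*, which spread from 0.412 to 1.08 and reached into the low set. In clone 3 *Tead3*, at 0.488, also lay within the range of the low set. By fold enrichment over the local background, *Yap1* in clone 3 and *Wwtr1* in clone 2 stood lower than by reads, at the percentiles 63.6 and 50.4 of all promoters of those clones. Over all 10 genes the median was 0.970, 1.13 and 1.14 in clones 1, 2 and 3, close to the value of 1 that holds by construction for the median gene. By fold enrichment the median percentile among all promoter peaks was 54.5, 57.6 and 59.5. The promoter windows of the 10 genes were covered more widely, with a median of 2091, 2277 and 1999 bases under peaks. Their median percentile was 93.6, 92.0 and 94.6 among all protein-coding genes, where the median gene had 0, 718 and 0 bases. All protein-coding genes include those without a promoter peak. Among genes with a promoter peak the median percentile was 87.3, as a mean over the clones. These windows are also larger for genes with many starts.

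The clones differed most at *Ctgf* and *Ankrd1*. On the log2 scale of relative promoter reads, the range over the 3 clones was 1.40 at *Ctgf*, from −2.09 in clone 1 to −0.69 in clone 2, and 1.40 at *Ankrd1*, from −1.28 in clone 2 to 0.12 in clone 3. They exceed the ranges of 95.8% and 95.7% of the 10194 genes with a promoter peak in all clones. *Tead2* and *Tead3* followed with ranges of 0.95 and 0.94. The effectors *Wwtr1*, *Tead4*, *Tead1* and *Yap1* had ranges of 0.31 or less. Over the 10 genes the median range was 0.51, and over all genes 0.48 with quartiles of 0.30 and 0.72, so that as a group these promoters varied about as much as others. *Ctgf* and *Tead2* have few reads in clone 1, where counting error is largest.

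By the median over the 10 genes, peaks within the genes and around them were more numerous than over all protein-coding genes. All protein-coding genes include those without a promoter peak, and the counts among genes with one were not worked out. Body peaks numbered 31, 69 and 26 over the 10 genes in clones 1, 2 and 3, and 7 of the 10 genes had one in all clones, against 10.9% of all protein-coding genes. Longer genes have more room for such peaks. Only *Tead2* and *Ctgf* had no body peak in any clone. Distal peaks within 100 kb numbered 63, 136 and 70, and 9 of the 10 genes had one in all clones, against 73.2% of all genes, so that this count says little about the 10. The median was 5.5, 10.5 and 5.5 distal peaks per gene, beside 3, 5 and 3 over all genes. *Wwtr1*, with 1 distal peak in each clone, and *Ctgf*, with 0, 2 and 2, lay below the medians of all genes. Of the distal peaks 30, 40 and 27 lay within 1 kb of a start of another gene. *Tead3* and *Amotl2* held most of the remaining 33, 96 and 43.

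The excess in clone 2 was concentrated at a few genes. Clone 2 had 228 peaks in and around the 10 genes against 110 and 113 in clones 1 and 3. At *Tead3* the counts were 13, 52 and 13 and at *Tead1* 18, 44 and 13. At *Tead4* they were 18, 39 and 20, and at *Amotl2* 19, 35 and 22. *Wwtr1* was the exception with 10, 8 and 8. When the same number of peaks was taken from each list, the strongest 29182 by −log10 q, the totals were 110, 125 and 113. *Tead3* then had 13, 25 and 13 peaks and *Tead1* 18, 23 and 13, so that clone 2 was still the highest there, while *Tead4* had 18, 19 and 20. The number of listed peaks moves with these counts, since clone 2 lists far more peaks than clone 1 from a similar estimated number of reads.

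**Figure D4:**
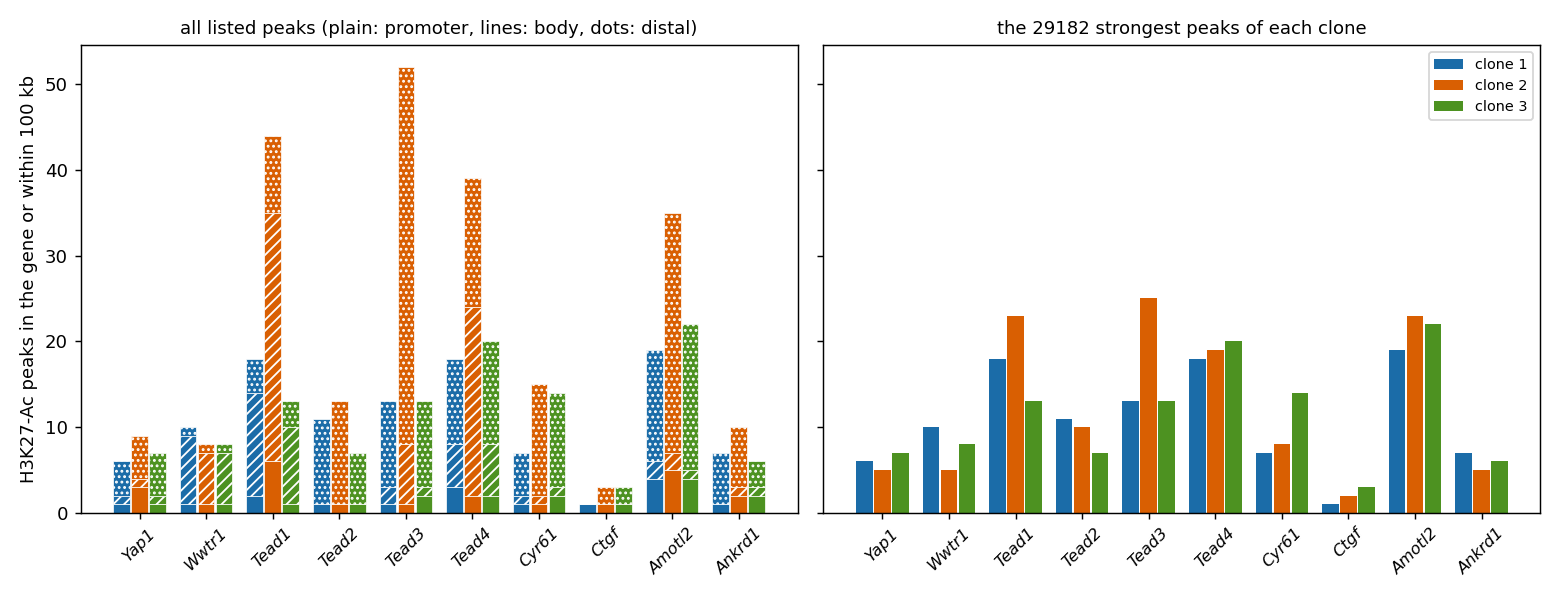
Number of H3K27-Ac peaks (y axis) in each gene or within 100 kb of it (x axis), by clone. Left, all listed peaks divided into promoter, body and distal. Right, the 29182 strongest peaks of each clone, where *Tead3* still has 25 peaks in clone 2 and 13 in the others.

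Merging the 3 lists gave 235 regions in and around the 10 genes, of which 65 (27.7%) held a peak of all clones, 34 of 2 clones and 136 of a single clone. Of all merged regions of the genome 27.3% held a peak of all clones, so that the share did not stand apart. Of the regions found in a single clone, 121 were in clone 2, 4 in clone 1 and 11 in clone 3. Over the genome 33914 regions were found in a single clone, 25255 of them in clone 2, 3073 in clone 1 and 5586 in clone 3. Clone 2 thus held most of them in the whole lists as well. The 65 regions at any annotated start were shared in 52.3%, beside 54.8% over the genome. Away from starts 31 of 170 regions, or 18.2%, were shared, beside 13.8%. *Amotl2* held 12 of the shared regions and *Tead4* held 12. *Tead1* held 9, *Tead3* 8, *Tead2* 6, *Cyr61* 5, and *Yap1*, *Wwtr1* and *Ankrd1* 4 each, while *Ctgf* held only its promoter.

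At *Cyr61*, *Amotl2* and *Yap1* the strongest shared region outside the promoter lay at the start of another gene, namely *Znhit6*, *Anapc13* with *Cep63*, and *Birc2*. These are not printed, and the strongest shared regions away from any start are shown in their place. *Ctgf* had no shared region outside its promoter and *Yap1* none away from starts. Of the sequences that follow, the first holds the clone 1 summit of the broad *Cyr61* peak, the next 2 the strongest shared distal regions of *Cyr61* and *Amotl2*, and the last the only shared region with a TEAD match near the summit in all 3 clones. The first and last were chosen after their values were seen. Each gives 200 bases around the summit of clone 1, on the strand of the gene, with GGAATG or CATTCC in capitals. None holds TGANTCA, and GGAATG is absent from the promoter summit of *Cyr61* and the distal region of *Amotl2*.
Cyr61, upstream summit of the broad peak, chr3:145653025-145653224, minus strand: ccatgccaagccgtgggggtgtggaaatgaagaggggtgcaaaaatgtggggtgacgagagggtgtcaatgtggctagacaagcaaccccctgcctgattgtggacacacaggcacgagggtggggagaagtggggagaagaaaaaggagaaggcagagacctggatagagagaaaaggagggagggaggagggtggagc
Cyr61, distal region, chr3:145684620-145684819, minus strand: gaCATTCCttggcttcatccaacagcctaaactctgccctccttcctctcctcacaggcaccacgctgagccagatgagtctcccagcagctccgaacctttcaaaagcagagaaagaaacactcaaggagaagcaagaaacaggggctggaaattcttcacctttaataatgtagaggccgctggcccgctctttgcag
Amotl2, distal region, chr9:102644306-102644505, plus strand: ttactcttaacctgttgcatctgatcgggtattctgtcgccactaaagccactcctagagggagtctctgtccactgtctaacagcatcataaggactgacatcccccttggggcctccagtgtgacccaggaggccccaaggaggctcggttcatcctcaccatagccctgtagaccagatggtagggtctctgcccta
Amotl2, downstream region, chr9:102755782-102755981, plus strand: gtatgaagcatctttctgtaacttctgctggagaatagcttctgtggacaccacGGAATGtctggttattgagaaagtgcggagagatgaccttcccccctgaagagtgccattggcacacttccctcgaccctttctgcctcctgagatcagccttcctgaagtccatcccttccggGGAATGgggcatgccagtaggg

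The distal region of *Cyr61* lies 34.7 kb upstream of its start and held 28, 45 and 43 reads in clones 1, 2 and 3. The summits of the clones spread over 955 bases there, so that the printed window holds the summit of clone 1 alone, and the TEAD match is within 100 bases of the summit in clone 1 alone. That of *Amotl2* lies 73.3 kb upstream and held 102, 71 and 121 reads, so that clone 2 was the lowest there. The summit of clone 2 lies outside the printed window, as the summits spread over 544 bases. The last region lies 38.2 kb downstream of the *Amotl2* start and held 16, 51 and 36 reads, near the lower limit of clone 1. Its summits spread over 199 bases. None of the printed windows around summits overlaps an annotated exon.

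Around the summits the comparison of the TEAD motif with other peaks depended on the window and on the letters searched. GGAATG on either strand lay within 100 bases of the summit in 10 of 110, 28 of 228 and 10 of 113 peaks of the 10 genes in clones 1, 2 and 3, or 9.09%, 12.3% and 8.85%. Over all peaks of the lists the shares were 9.78%, 9.73% and 9.50%. Away from starts they were 9.68%, 13.0% and 10.3%, beside 11.8%, 11.2% and 11.5%. Within 250 bases the shares were 35.5%, 28.5% and 27.4%, beside 23.1%, 24.1% and 24.3% of all peaks, and were higher in each clone. Within 50 bases they were 4.55%, 6.14% and 7.08%, beside 4.93%, 4.74% and 4.74%. The longer forms GGAATGT or GGAATGC within 100 bases were again more frequent in each clone, with 7.27%, 7.02% and 7.96%, beside 4.43%, 4.68% and 4.37%. Peaks near one gene are not independent, and none of these differences was tested. TGANTCA lay within 100 bases in 3.64%, 3.51% and 3.54%, beside 4.17%, 5.63% and 5.03%. Both motifs occurred together in 0, 1 and 0 peaks, beside 0.435%, 0.633% and 0.605% of all peaks. In no peak of the 10 genes did they share a base, and among all peaks they did so in only 11, 25 and 13. These counts are too small to set the 10 genes apart from other peaks. Of the 65 shared regions 13 had a TEAD match at the summit of at least 1 clone, and the promoters of *Wwtr1*, *Tead3* and *Ankrd1* were among them. The same count was not made over the shared regions of the genome. A region with a summit from each clone has more chances of a match than a single peak, so that this count says nothing particular about the 10 genes. At *Cyr61* and *Yap1* the promoter summits lay more than 100 bases from the matches before the start, which therefore do not enter these counts. A match is a description of letters and no measure of binding.

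Neighbouring peaks were stitched together into domains, of which there were 14560, 18280 and 16371 in clones 1, 2 and 3, and domains were ranked by the bases under peaks. Most of the 10 genes lay in large domains. The median percentile of their domains was 93.2, 94.2 and 97.1. Domains with a promoter are larger than others, and over all protein-coding genes with a promoter peak the median was 65.0, 73.3 and 64.1. Among those genes the 10 had a median percentile of 87.5, 82.0 and 95. A promoter peak in the top 5% of domains was found for 4, 5 and 6 of the 10 genes, against 4.77%, 9.35% and 4.14% of all protein-coding genes, and for 4 genes in all clones, against 2.15%. These were *Tead3*, *Tead4*, *Cyr61* and *Amotl2*. The shares of all genes include those without a promoter peak, which cannot count here. Of the 10913, 12461 and 10541 genes with a promoter peak in clones 1, 2 and 3, 1046, 2049 and 908 had one in a top 5% domain. In all clones this held for 472 of 10194 genes.

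The domain of *Tead4* spanned 26.6, 73.7 and 26.3 kb and ranked 103, 320 and 328 in clones 1, 2 and 3. That of *Amotl2* spanned 23.0, 65.8 and 20.1 kb and ranked 408, 96 and 259. *Cyr61* lay in a domain of 5.90, 22.0 and 21.3 kb, with ranks of 629, 742 and 178. No other protein-coding gene starts in these domains. With 29182 peaks per clone the spans in clone 2 were 28.3 kb at *Tead4*, 21.7 kb at *Amotl2* and 7.20 kb at *Cyr61*. The *Tead3* domain ran over the start of *Rpl10a*, a ribosomal protein gene, in all clones. It spanned 24.1 kb in clones 1 and 3, and 128 kb in clone 2, where it also held the starts of *Fance* and *Ppard* and ranked 22 of 18280 with 41 peaks. With 29182 peaks per clone it spanned 38.8 kb in clone 2, so that the lengths of all 4 domains in clone 2 rest on its weaker peaks. *Tead1* ranked 731, 468 and 502 and *Ankrd1* 1268, 1398 and 461, so that *Tead1* was in the top 5% in clones 2 and 3 and just outside it in clone 1, with 5421 bases under peaks against a limit of 5436, and *Ankrd1* was in it in clone 3. With 29182 peaks per clone *Tead1* was at the percentile 94.2 in clone 2 and no longer in the top 5%, which leaves 4 genes there. *Yap1* and *Wwtr1* ranked lower, with percentiles of 82.1, 84.1 and 85.8 for *Yap1* and 88.2, 78.0 and 89.7 for *Wwtr1*. At the low end *Tead2* had a domain of a single peak, with percentiles of 10.8, 49.9 and 18.3, and *Ctgf* had 14.7, 52.9 and 63.0.

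**Figure D5:**
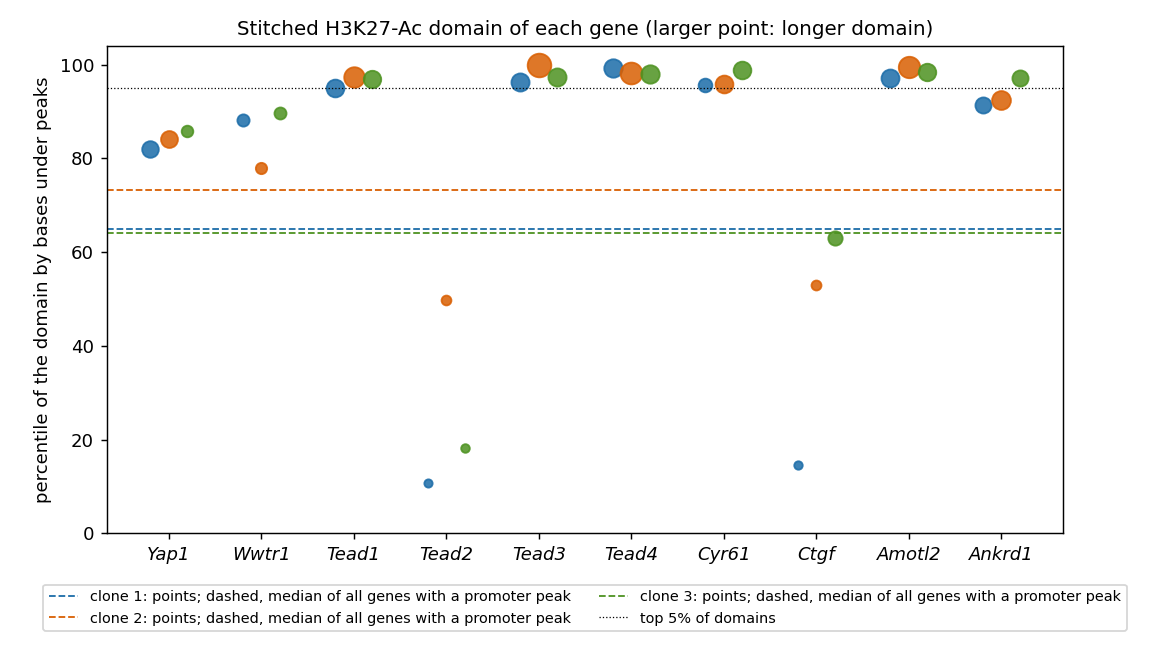
Percentile of the stitched domain that holds each gene's strongest promoter peak, by bases under peaks (y axis), for each gene (x axis) and clone; larger points are longer domains, dashed lines the medians of all genes with a promoter peak and the dotted line the top 5%. *Tead3*, *Tead4*, *Cyr61* and *Amotl2* lie above the dotted line in all clones, and *Tead2* and *Ctgf* lie lowest.

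Likeness to other genes was measured as the mean absolute difference in percentile over 6 values, namely bases under peaks within 1 kb of a start and within 100 kb of the gene in the 3 clones. The genes most like *Yap1* were *Syncrip* and *Fmc1*, which differed by 1.41 and 1.57 percentile points on average. For *Cyr61* they were *Gm44502* and *Anln*, with 2.02 and 2.19, and for *Ctgf* *Pdcl3* and *Rpl31*, with 2.82 and 2.89. *Ctgf* and its likest genes had promoter percentiles of 51.1 to 77.0 with few bases in the surroundings, at percentiles of 20.2 to 32.5. That these genes are alike in these values follows from how they were chosen.

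The other genes of the pathway were mostly marked as well. Of 26 Hippo kinases and regulators, 25, 25 and 23 had a promoter peak in clones 1, 2 and 3, and 23 in all clones. *Dchs1*, an atypical cadherin, had none in any clone. *Fat4*, the cadherin that binds it, had 78 and 164 reads in clones 1 and 2 and no listed peak in clone 3, and *Amot*, an angiomotin related to *Amotl2*, had 22 and 58 reads and none in clone 3. Of the 4 vestigial-like cofactors of TEAD, *Vgll3* and *Vgll4* were marked at the promoter in all clones and *Vgll1* and *Vgll2* in none. Of 18 further YAP and TAZ target genes 17, 16 and 15 had one, and 15 in all clones. *Igfbp3*, a binding protein of insulin-like growth factors, had none. *Fjx1* had 31 and 59 reads in clones 1 and 2 only, and *Ccdc80*, a secreted matrix protein, had 22 reads in clone 1 only. These shares stand beside the 46.5% of all protein-coding genes with a promoter peak in all clones, a share that includes genes silent in most cells. *Lats2* and *Ptpn14* are in both of the longer lists.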

How the data were processed

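H3K27-Ac ChIP-seq of 3 Cdkn2ab−/− clones was analysed from the deposited peak lists. Per the submitters' processing notes, the authors used Bowtie2, GRCm38 and, for peak calls against IgG, MACS2 2.1.1, with the 2 libraries of clone 3 pooled. Names in the lists say that reads of clones 1 and 2 were filtered for mapping bias between alleles, which can remove reads; those of clone 3 do not. The authors' fold enrichment is a ratio of the pileup plus 1 to the local background plus 1 at each summit, and their p- and q-values are deposited as −log10. The other deposited values are a score made from the q-value and the offset of the summit from the peak's start.

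The number of ChIP reads at a summit follows from the fold enrichment and p-value, and was found for 29181, 49586 and 29277 peaks; the total reads per clone are estimates from this solution. Intervals are exact Poisson (95%) and cover counting error only. Peaks on other sequences than the chromosomes (5, 21 and 3) were left out of gene assignments. Genes were those of GENCODE M21. A promoter peak overlapped 1 kb around any annotated start, a body peak the rest of the gene, and a distal peak lay within 100 kb. Domains were made by stitching peaks up to 12.5 kb apart, and regions of the 3 clones were merged at an overlap of 1 bp. Motifs were searched within 100 bases of summits and 250 bases before principal starts. Sequences are from GRCm38; those before the starts of *Tead1* and *Ctgf* and the motif counts made from them are not reported here. Read solving and motif searches were tested on simulated data. Python 3.11.15, pandas 2.3.3, scipy 1.17.1 and samtools 1.23.1 were used. No test between groups was possible with 1 condition. Alternatives changed the windows, the q-value limit, the joining distance, the number of peaks, the measure of strength, the motif and the clones.

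The 10 genes, the pathway and marker lists and the settings were chosen with earlier results of these data known. All 10 genes are named; other pathway genes are named where a promoter peak was missing in at least 1 clone, and naming *Vgll3* and *Vgll4* was decided with their values in view. The genes most like *Yap1*, *Cyr61* and *Ctgf* were taken over 1 Mb away.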

Additional observations from a re-analysis of the deposited data

How the results depend on the processing

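Of 53 alternative values for 7 results, 40 stayed within 1.5 times the value reported for counts, or within 1 SD over the clones for percentiles and shares, and 13 did not. The promoter count was 10 of 10 under each alternative but 2, namely 8 where a peak had to cover a start and 9 where its summit had to lie within 1 kb of one, a setting chosen after seeing the data. The shares of all genes under these alternatives were not worked out. With peaks of −log10 q of at least 5, body peaks averaged 25.3 per clone rather than 42, shared regions fell to 42 from 65, the median domain percentile to 91 from 94.8 and the promoter percentile to 54.7 from 57.2. Distal peaks averaged 39 within 50 kb rather than 89.7 within 100 kb. With summits within 250 bp, 36 regions were shared. Domains joined at 5 kb had a median percentile of 91.7. The promoter percentile was 59.7 by −log10 q, 87.3 by bases under peaks and 54.1 with the summit within 1 kb of a start. The share of peaks with a TEAD match was 10.1% as reported, 5.92% within 50 bases, 30.5% within 250 bases and 7.42% for the longer motif, as means over clones, beside 9.67%, 4.81%, 23.8% and 4.49% of all peaks.

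Leaving out each clone in turn gave promoter counts from 10 to 10, body peaks from 28.5 to 50, distal peaks from 66.5 to 103, shared regions from 75 to 84, domain percentiles from 93.6 to 95.6, promoter percentiles from 56.1 to 58.5 and TEAD shares from 8.97% to 10.7%. A region counted as shared there when each remaining clone had a peak, a looser rule than for the 65 regions reported, so that these counts are not comparable with 65. Clone 2 lifts the counts of body and distal peaks, which were lowest without it. No paired analysis was possible because no result comes from a test between groups. Peaks list only sites past the authors' threshold, and a clone is 1 sample, so values near the lowest listed reads cannot show that a mark is absent.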
